A study of Mus musculus with 3 samples.

Results

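The genes described here are 50 genes whose products copy DNA in S phase, chosen by their function and set apart from the genes of mitosis. They cover the complex that marks origins, the MCM helicase and the factors that switch it on, the DNA polymerases, the sliding clamp and its loader, the enzymes of nucleotide supply, the regulators of S phase entry, and the pair that copies DNA methylation. All 50 were represented on the array, out of 19738 genes that could be named. Macrophages with the surface pattern CD11b+Gr1-F4/80+ were sorted from the backskin of CD1 mice during the second telogen, the resting phase of the hair cycle, and their transcripts were measured on 1-colour arrays. There was 1 array for day 42 after birth (taken as early telogen, Te, which the text of the study puts at a slightly later day), 1 for day 55 (mid telogen, Tm), and 1 for day 69 (late telogen, Tl). The mice were untreated, RNA was pooled from 3 littermates per array, and small amounts of RNA were amplified before labeling.

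The deposited files assign the later arrays in opposite ways. The Tm column of the deposited value table matched the scanner file of day 69 within 0.05 (log2, after removal of a common offset) at 99.9% of 36380 probes, and its Tl column matched the scanner file of day 55 at 99.8%. Days are given here as the scanner files are assigned, and results that both later arrays share do not depend on this choice. With 1 array per stage there is no spread between replicates and no test, so all changes below are descriptions of these arrays. Repeated spots of 1 probe had a median SD (log2) of 0.13, 0.11, and 0.12 on the day 42, 55, and 69 arrays, and the share of probes well above background was 71.4%, 59.7%, and 68.7%. This spot error gives a change from day 42 to day 69 an SD of 0.17, without the variation between mice, sorts, or amplifications.

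DNA replication starts at origins that are licensed in G1. The origin recognition complex, Cdc6, and Cdt1 load the ring of Mcm2 to Mcm7 onto DNA, and the kinases of S phase then recruit Cdc45 and GINS to make the ring an active helicase. Polymerase alpha with primase begins each strand, polymerases delta and epsilon extend it while held by the PCNA clamp, and Fen1 and Lig1 join the Okazaki fragments. Many of these genes are transcribed under E2F at the border of G1 and S, whereas genes of mitosis are transcribed later through CHR elements. Resident macrophages of the adult skin are mostly in a resting state, and some of them renew by division.

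Promoter sequences are shown because certain letters, which the choice of members did not use, were found in a larger share of members than of all genes. The sequences are from RefSeq (GRCm38.p6), as windows of 300 bases with 250 before and 50 after each start, and 42 of the 50 members had at least 1 window. The E2F site was searched as TTTCCCGC, TTTGGCGC, TTTCGCGC, or TTTGCCGC on both strands, and neighboring matches may overlap. It was found in 17 of the 42 members (40.5%), compared to 2.60% of all 27025 genes with a window and 11 of 30 related replication genes that are no members (36.7%). Counted by windows the shares were 31.5% and 2.26%. The stretches printed run 5′ to 3′ on the gene's strand from 30 bases before the first match to 30 bases after the last one, or to the start site, with the matches in capitals. The genes were picked by hand, after their values were seen, to cover different roles, namely a helicase pair (Mcm6, Mcm5), the catalytic subunit of polymerase alpha (Pola1), 2 origin factors (Cdc6, Orc3), and a GINS subunit (Gins3).
Mcm6: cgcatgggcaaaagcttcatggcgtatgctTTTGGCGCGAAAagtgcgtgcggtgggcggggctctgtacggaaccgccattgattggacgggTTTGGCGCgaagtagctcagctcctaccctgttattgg
Mcm5: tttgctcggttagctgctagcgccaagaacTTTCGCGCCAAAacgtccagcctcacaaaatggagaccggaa
Pola1: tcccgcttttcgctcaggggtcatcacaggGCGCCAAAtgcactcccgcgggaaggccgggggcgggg
Cdc6: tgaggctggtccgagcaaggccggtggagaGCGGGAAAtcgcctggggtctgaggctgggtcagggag
Orc3: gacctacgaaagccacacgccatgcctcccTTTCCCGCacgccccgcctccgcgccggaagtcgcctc
Gins3: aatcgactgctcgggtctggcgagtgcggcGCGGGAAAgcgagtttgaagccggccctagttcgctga

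These stretches lie at chr1:128359715-128359845 (minus strand) for Mcm6, chr8:75109326-75109397 (plus) for Mcm5, chrX:93632256-93632323 (minus) for Pola1, chr11:98907983-98908050 (plus) for Cdc6, chr4:34614946-34615013 (minus) for Orc3, and chr8:95633488-95633555 (plus) for Gins3. In Mcm6 the matches begin at -110, -106, and -47 from the start, and the first 2 of them overlap on opposite strands. The same kind of overlapping pair stands in the Mcm5 promoter. By group, 4 of 5 MCM helicase genes with a window held a match, as did 4 of 8 genes of the pre-replication complex and 4 of 7 of the polymerases and primase, while none of the 4 genes of nucleotide supply and none of the 3 RPA genes did.

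The genes of mitosis were different in their letters. Of 25 mitosis genes with a window, 1 held the E2F site (4%), and 18 held the letters TTTGAA of the CHR element (72.0%), which were found in 7 of the 42 members (16.7%) and 20.2% of all genes. The letters CCAAT, read by NF-Y, were found in 25 of the 42 members (59.5%), 19 of the 25 mitosis genes (76.0%), and 41.1% of all genes. The end of the Cdc20 promoter, at chr4:118437344-118437391 (minus strand), is printed as an example of a mitosis gene for contrast, also picked by hand, with the CHR letters in capitals.
Cdc20: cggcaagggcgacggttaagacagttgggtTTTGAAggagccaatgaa

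A match is a description of the letters and not a binding site. Within the members, the 16 genes with the E2F letters and a value had medians (log2 change) of 0.89 at day 69 and 1.42 at day 55 against day 42, and for the 24 without them the medians were 0.89 and 1.14.

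**Figure D1:**
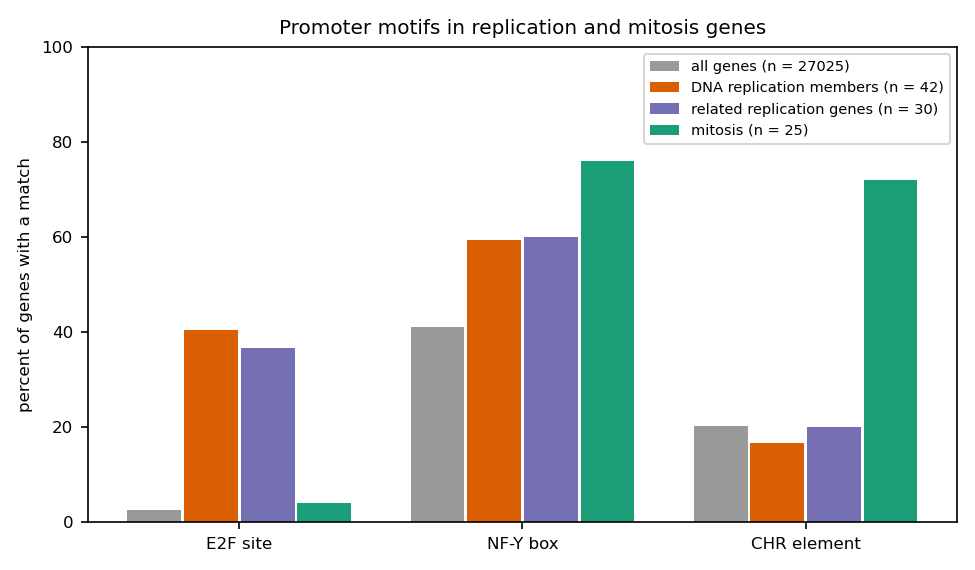
Share of genes (percent, vertical axis) with a match to the E2F site, the NF-Y box, or the CHR element in their promoter windows, for all genes, the DNA replication members, related replication genes, and mitosis genes. The members held the E2F site in 40.5% of genes, the related replication genes in 36.7%, and the mitosis genes the CHR element in 72.0%, compared to 2.60% (E2F) and 20.2% (CHR) of all genes.

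Most replication genes had a higher signal on both later telogen arrays than on the day 42 array. A level is the log2 processed signal minus the 75th percentile of its array, so that a gene at 0 is as bright as that percentile, and a change is a difference of levels. Both later arrays are compared with the same day 42 array, so that their changes are not independent. A value could be given for 47 members, while Orc1, Tyms, and Ccne2 were well above background on no array. Of the 47, 38 were above 0 on both later arrays (80.9%), compared to 46.2% of all genes. At day 69, 20 members were at least 2-fold higher (background 22.4% of 16168 genes) and 1 was at least 2-fold lower (background 20.9%). At day 55, 28 were at least 2-fold higher (background 29.4% of 15856 genes) and 0 at least 2-fold lower (background 17.0%). On both later arrays 16 members were at least 2-fold higher (background 16.8% of 15614 genes) and 0 lower (background 11.5%). With bounds counted at their value, none reached the 10-fold change that the methods of the study use. Upward, 0.687% of all genes reached it at day 69 and 1.16% at day 55. Mcm10, Gins1, and Prim1 have bounds only, so that 10-fold is not excluded for them. The deposited value table, without a filter on dim probes, gave Mcm10 log2 changes of 3.73 in its Tm column and 3.77 in its Tl column. There, Gins1 had 3.34 and 3.66, and Prim1 had 3.38 and 2.265. All of these except the last exceed 10-fold.

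The median log2 change of the 47 members was 0.90 at day 69 (from a bound of -1.49 to a bound of 3.1) and 1.33 at day 55 (from a bound of -0.52 to a bound of 3.14). The median of all genes was 0.15 and 0.23, so that the members stood 0.75 and 1.10 above it. Counted against that median, 17 members were at least 2-fold higher at day 69 and 26 at day 55. Over all genes, percentile 82 of the change was 1.16 at day 69 and percentile 77 was 1.24 at day 55, close to this line. Without subtraction of that median, the counts depended on the scaling. At day 69 they ranged from 13 with the percentile taken over probes detected on all arrays to 41 with no scaling. Relative to the median of all genes, the same scalings gave 17 and 16 members. In bulk RNA, a difference in the number of cells of a type and a difference in RNA per cell cannot be told apart.

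**Figure D2:**
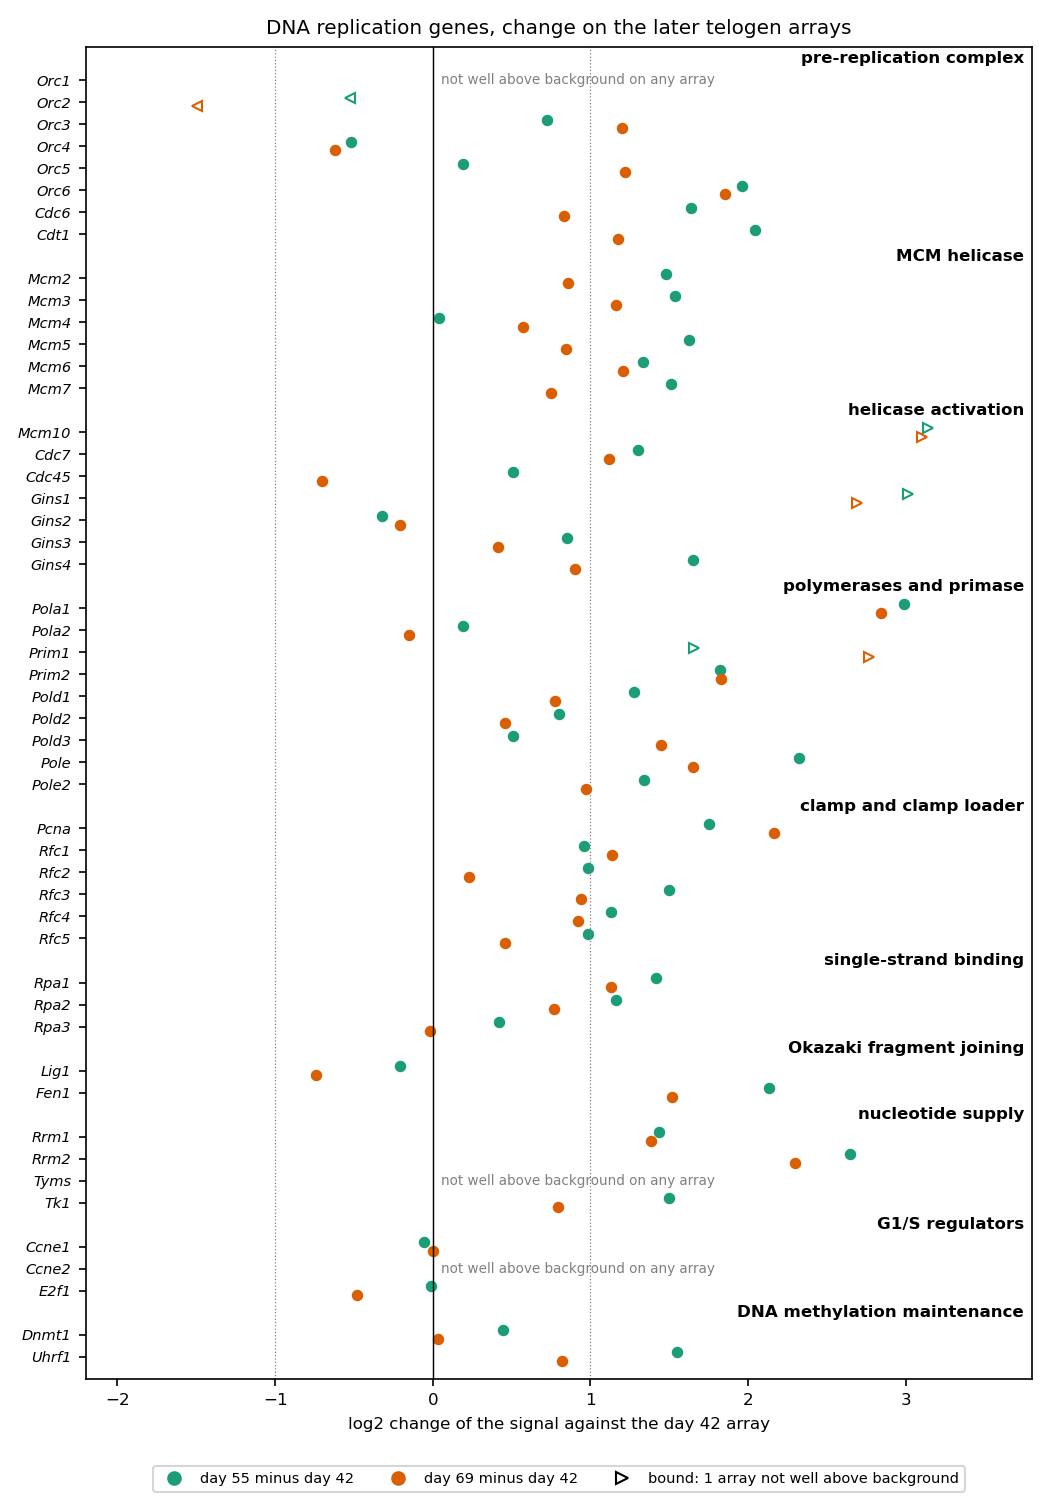
Log2 change (horizontal axis) of each DNA replication gene on the day 55 (green) and day 69 (orange) arrays against the day 42 array, grouped by role, with dotted lines at 2-fold and open triangles for bounds where 1 of the arrays was not well above background. Of 47 genes with a value, 38 lie to the right of 0 on both arrays, and the 2 G1/S regulators with a value stand at or below 0.

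The genes that license origins were divided. Orc1, the largest subunit of the origin recognition complex and the one that cells replace in each cycle, was well above background on no array. Orc6, its smallest subunit, had a level of -2.77 at day 42, -0.81 at day 55, and -0.92 at day 69. Cdt1, the loader that brings the helicase to the origin, had levels of 0.02, 2.06, and 1.19 in the same order. Both later arrays were thus higher for these genes, by 3.89-fold and 3.61-fold for Orc6 and by 4.13-fold and 2.25-fold for Cdt1 (day 55 and day 69). With normexp, another background correction that starts from the raw spot signals, the changes of Orc6 were 1.18 and 1.12. Cdc6, the ATPase that loads the helicase together with Cdt1, was higher by 1.63 at day 55 and 0.83 at day 69, but its dimmer probe gave 0.38 and a bound of -1.19.

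Core subunits of the origin recognition complex did not move as one. Orc3 was higher by 0.73 at day 55 and 1.20 at day 69, although its other probe gave -1.07 and 1.67. Orc5 was higher by 0.19 and 1.22. Orc4 was lower by both of its probes, with changes of -0.52 and -0.62 for the brighter probe and a bound of -2.86 at day 55 and a change of -1.20 at day 69 for the other. Orc2 was well above background only at day 42, with bounds of -0.52 at day 55 and -1.49 at day 69, and it was the only member whose chosen, brightest probe was at least 2-fold lower than at day 42 on a later array.

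The MCM ring, the motor of the replicative helicase, lay above its day 42 level in all 6 subunits on both later arrays, with Mcm4 the weakest. Mcm3 had levels of 0.87, 2.41, and 2.03 at days 42, 55, and 69, and Mcm6 had levels of 1.15, 2.48, and 2.36. Their changes were 2.91-fold and 2.23-fold for Mcm3, and 2.51-fold and 2.31-fold for Mcm6. Mcm2, Mcm5, and Mcm7 were higher by 1.48, 1.62, and 1.51 at day 55 and stood at 0.86, 0.85, and 0.75 at day 69, which is less than 2-fold. Mcm4 differed from its partners at day 55, with a change of 0.04 that lies within the spot error, and was higher by 0.57 at day 69. All 6 genes were well above background on all arrays, each with 1 probe.

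The factors that activate the helicase held Mcm10, beside genes with little change. By the processed signal, Mcm10 was the member with the largest change on both later arrays. Mcm10, which helps the helicase to begin unwinding, was not well above background at day 42 (a level of -5.07) and stood at -1.30 at day 55 and -1.34 at day 69. It was at least 8.81-fold higher at day 55 and at least 8.58-fold higher at day 69. Gins1, a subunit of the GINS complex, went from a dim -5.08 to -1.43 and -1.75, at least 8.09-fold and 6.47-fold higher. Signals of both genes on the later arrays lay close together and far from the day 42 array. These bounds hold for the processed signal only. With normexp, whose added offset shrinks the folds of dim probes, the changes were 1.57 and 1.45 for Mcm10. For Gins1 they were 1.37 and 0.94, so that Gins1 was below 2-fold at day 69. Pcna (1.75 and 2.16), Pola1 (1.76 and 1.62), and Rrm2 (1.92 and 1.56) then had larger changes than Mcm10 on both arrays.

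The other GINS subunits had smaller changes than Gins1 and were well above background on all arrays. Gins4 was higher by 1.65 at day 55 and 0.90 at day 69, and Gins3 by 0.85 and 0.41. Gins2 had changes of -0.32 and -0.21, within 2 SDs of the spot error. Cdc45, the partner of GINS in the active helicase, was higher by 0.51 at day 55 and had a change of -0.70 at day 69. Cdc7, the kinase that phosphorylates the MCM ring, had levels of -3.87, -2.57, and -2.76 and was higher by 1.30 and 1.11. Its second probe gave the opposite direction, with a bound of -1.36 and a change of -0.54, so that the direction of Cdc7 is uncertain.

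**Figure D3:**
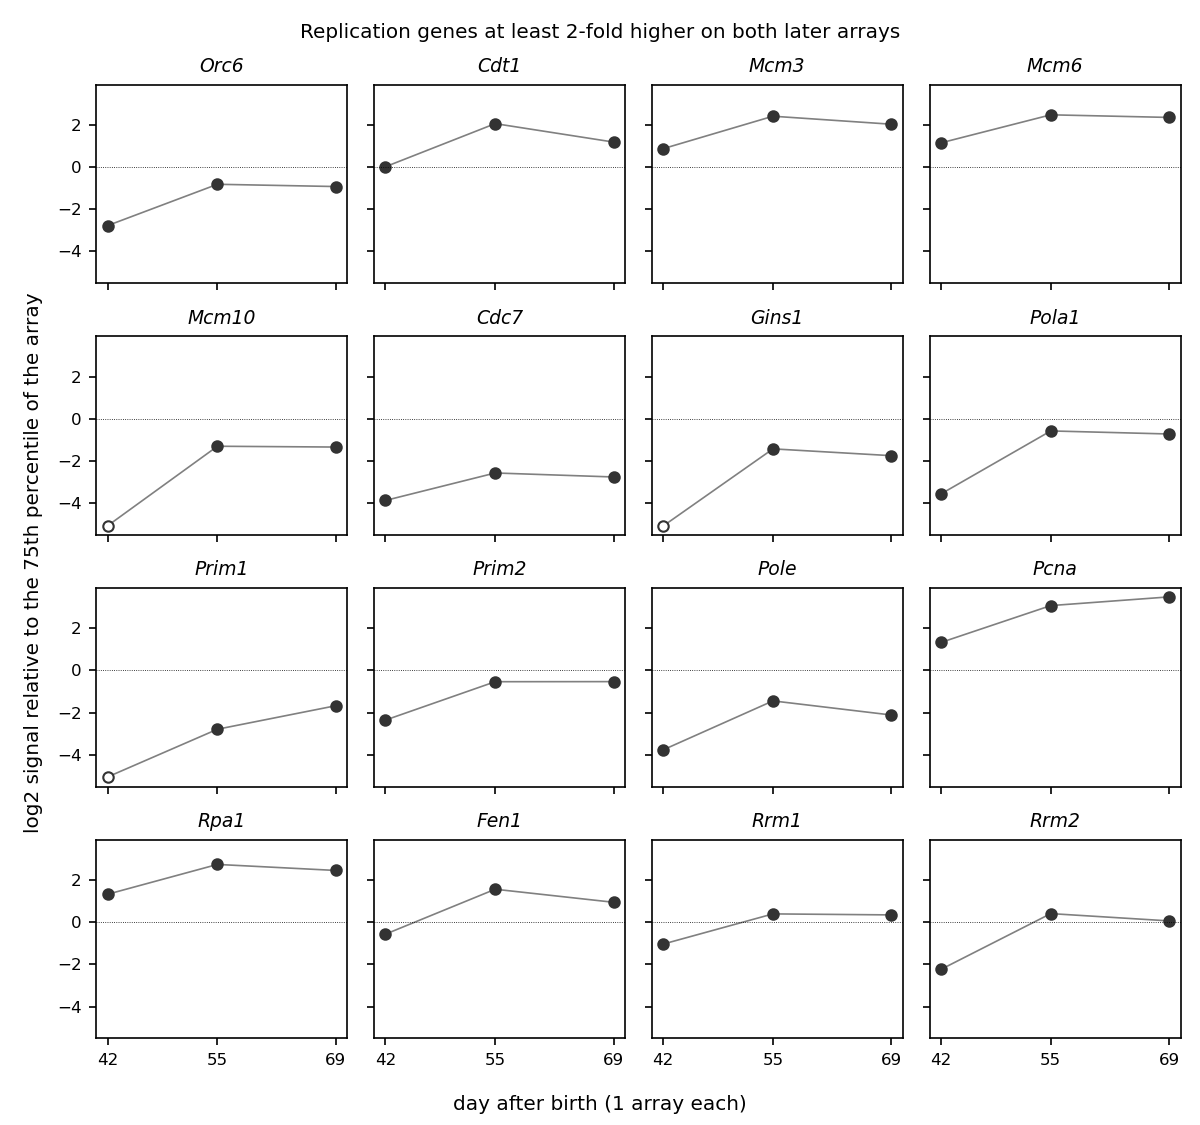
Log2 signal relative to the 75th percentile of the array (vertical axis) on the day 42, 55, and 69 arrays (1 array each) for the 16 members at least 2-fold higher on both later arrays. Filled points are well above background, and open points, seen for Mcm10, Gins1, and Prim1 at day 42, are not.

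The enzymes that begin strands were higher, with 1 exception. Pola1, the catalytic subunit of polymerase alpha, had levels of -3.56, -0.58, and -0.72 at days 42, 55, and 69, and was 7.94-fold and 7.18-fold higher. Only 299 of the 15856 genes with a value had a higher change at day 55, and 233 of 16168 at day 69. Prim1, the catalytic primase subunit, stood at a dim -5.05 at day 42, at -2.79 at day 55, and at -1.67 at day 69, at least 3.15-fold and 6.82-fold higher by the processed signal. Prim2, the large primase subunit, had levels of -2.35, -0.53, and -0.53 and was 3.53-fold and 3.54-fold higher. With normexp the changes were smaller, at 1.76 and 1.62 for Pola1, 1.19 and 1.14 for Prim2, and 0.63 and 1.05 for Prim1, which was then below 2-fold at day 55. In contrast, Pola2, the second subunit of polymerase alpha, had changes of 0.19 and -0.15, which is within 2 SDs of the spot error.

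Polymerase epsilon, which extends the leading strand, is represented among the members by Pole and Pole2. Pole, its catalytic subunit, had levels of -3.76, -1.44, and -2.11 and was 5.0-fold and 3.15-fold higher, and its second probe was also higher, by bounds of 1.51 and 1.96. With normexp background correction the changes of Pole were 0.94 and 0.33, below 2-fold on both arrays. Pole2, an accessory subunit, was higher by 1.34 and 0.97. The small subunits Pole3 and Pole4, which are no members, had changes of 0.46 and 0.00 and of 1.33 and 0.95. For polymerase delta, which extends the lagging strand, the changes were 1.28 and 0.78 for the catalytic subunit Pold1, 0.80 and 0.46 for Pold2, and 0.51 and 1.45 for Pold3. All 3 delta subunits were above 0 on both arrays, but Pold1 passed 2-fold only at day 55, Pold3 only at day 69, and Pold2 on neither.

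Pcna, the sliding clamp, was bright on all arrays, with levels of 1.33, 3.08, and 3.49 at days 42, 55, and 69. It was 3.36-fold higher at day 55 and 4.47-fold higher at day 69, and is 1 of 10 members whose level was higher at day 69 than at day 55. All 5 subunits of replication factor C, which loads the clamp, were above 0 on both arrays. At day 55 the smallest change was that of Rfc1 (0.96) and the largest that of Rfc3 (2.82-fold), while at day 69 Rfc2 was lowest (0.23) and Rfc1 highest (1.14). Rfc4, with 1.13 and 0.92, and Rfc5, with 0.98 and 0.46, lay between these values. The dimmer probe of Rfc4 gave 0.53 and -0.09.

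RPA coats single-stranded DNA at the fork. Rpa1, its large subunit, had levels of 1.32, 2.74, and 2.45 and was 2.67-fold and 2.19-fold higher. Rpa2 was higher by 1.16 and 0.77, while Rpa3, the small subunit, had changes of 0.42 and -0.02. The enzymes that finish Okazaki fragments differed. Fen1, the flap nuclease, had levels of -0.57, 1.56, and 0.94 and was 4.38-fold and 2.86-fold higher, whereas Lig1, the ligase, had a change of -0.21 at day 55, within 2 SDs of the spot error, and of -0.74 at day 69.

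Ribonucleotide reductase, which makes deoxynucleotides, was higher in both subunits. Rrm2, the small subunit that limits the enzyme in S phase, had levels of -2.24, 0.40, and 0.06 and was 6.26-fold and 4.92-fold higher, with changes of 1.92 and 1.56 after normexp. Rrm1, the large subunit, had levels of -1.04, 0.39, and 0.34 and was 2.70-fold and 2.61-fold higher. Tk1, the thymidine kinase of the salvage pathway, was 2.83-fold higher at day 55 and stood at a change of 0.80 at day 69. Tyms, the thymidylate synthase, gave no value.

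The 2 members with a value among the regulators of S phase entry did not share the increase. Related regulators that are no members were divided. At day 55 and day 69, E2f2 had changes of 1.78 and 0.49, Cdk2 of 0.965 and 0.58, and Cdc25a of 0.83 and 1.48. E2f3 had changes of -0.57 and -0.23. E2f1, an activating E2F, was well above background on all arrays, with levels of 1.40, 1.39, and 0.92 and changes of -0.01 and -0.48. Ccne1, which encodes cyclin E1, had levels of -1.30, -1.35, and -1.30, and its changes lie within the spot error by the brighter probe, while the dimmer one gave a bound of -0.86 at day 55 and -0.09 at day 69. Ccne2 was not well above background. Of the genes that maintain DNA methylation behind the fork, Uhrf1, which recruits the methyltransferase, was higher by 1.55 and 0.82, and its other probe was higher by 1.43 and 1.20. Dnmt1, the methyltransferase itself, had changes of 0.45 and 0.03.

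Of the later arrays, day 55 was the higher one for most members. The level at day 69 was below that at day 55 in 36 of 46 members with a value, compared to 8502 of 14841 genes over all, and the median change was -0.36, compared to -0.15. At the 2-fold line, 2 members were higher at day 69 than at day 55 (background 7.96% of 14841 genes), Prim1 by 1.11 and Orc5 by 1.03, and 1 was lower (background 11.4%), Cdc45 by a change of -1.21. Because the value table assigns these arrays the other way, which of the 2 stages had the higher level cannot be settled from these files.

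A list of 40 other genes of replication, which are no members, was set beside them. Of 36 with a value at day 69, 14 were at least 2-fold higher (background 22.4%) and 1 was lower (background 20.9%), with a median of 0.53. At day 55 it was 17 and 3 of 35 (backgrounds of 29.4% and 17.0%), with a median of 0.99. Gmnn, the inhibitor of Cdt1, was higher by 2.48 at day 55 and 2.35 at day 69, and E2f8, a repressor among the E2Fs, by 2.99 and 2.86. The histone chaperone genes Asf1b and Chaf1a were higher by 2.37 and 1.59 and by 1.53 and 1.27. In contrast, Chaf1b had changes of -0.32 and -0.54, and E2f7 of -1.11 and -0.67. Dna2, a nuclease of flap processing, had changes of -1.37 and -1.24. Rrm2b, the reductase subunit used outside S phase, had changes of -1.87 and -0.62, opposite to Rrm2.

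Of 10 genes that hold cells in G1, 9 had a value, and 7 of these were above 0 at day 69 and 7 at day 55, with medians of 0.56 and 0.49. On both arrays 6 of the 9 were above 0 (66.7%), compared to 46.2% of all genes. At least 2-fold higher were 2 at day 69 and 2 at day 55 (backgrounds of 22.4% and 29.4%), and 1 was lower at day 55 (background 17.0%). Cdkn1a, which encodes p21, had a level of 4.72 at day 42 and changes of -0.38 and -0.83, and Cdkn1b, which encodes p27, was higher by 0.56 and 0.93.

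The genes of mitosis, taken as a separate list of 28, had medians close to those of the members. At day 69, 13 of 26 with a value were at least 2-fold higher (background 22.4%) and 1 was lower (background 20.9%), with a median of 1.00. At day 55, 15 of 25 were higher (background 29.4%) and 0 lower (background 17.0%), with a median of 1.58. At day 42, 9 of the 28 mitosis genes were not well above background, compared to 6 of the 50 members. Cdk1, the kinase of mitotic entry, was higher by 3.72 and 2.93, while Mki67, the common marker of cycling cells, had changes of -0.16 and -0.57. Cdk1 has 3 probes and Mki67 has 2, and only the brightest of each is given. Whether replication and mitosis genes differ in their change was not tested.

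**Figure D4:**
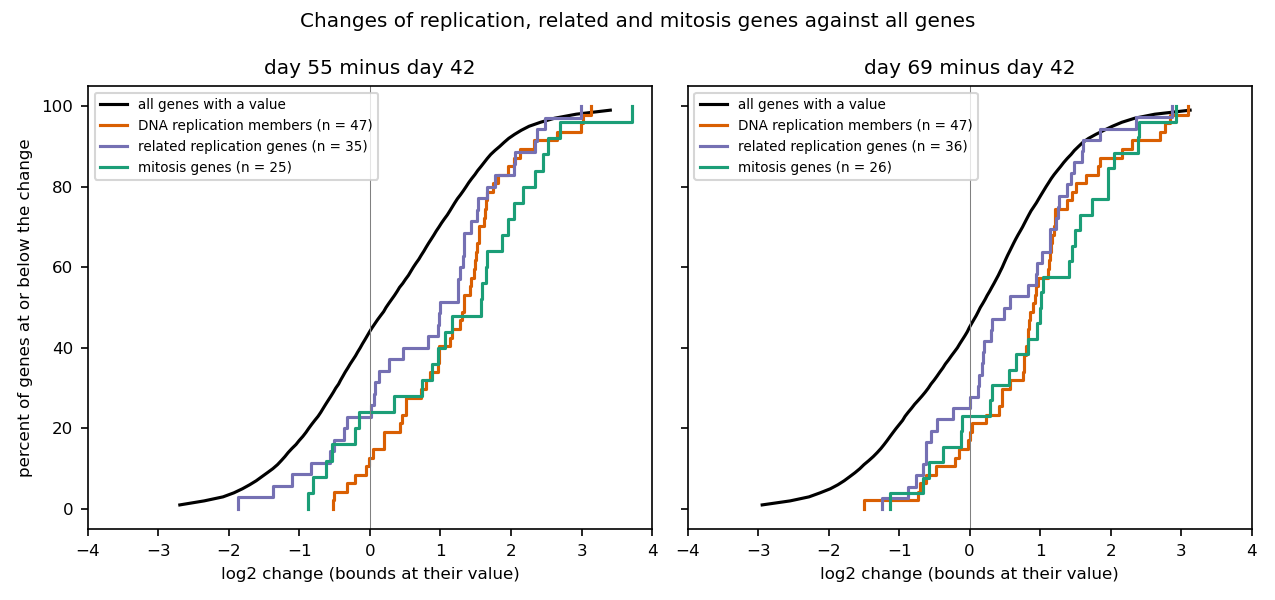
Cumulative share of genes (percent, vertical axis) at or below each log2 change (horizontal axis) at day 55 (left) and day 69 (right) against day 42, for the members, related replication genes, mitosis genes, and all genes with a value. The member curves run to the right of the curve of all genes, with medians of 1.33 against 0.23 at day 55 and 0.90 against 0.15 at day 69.

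The label of the sorted cells was checked against markers. All 15 macrophage markers on the array were well above background on all arrays. None was at least 2-fold higher on a later array (shares over all genes of 29.4% at day 55 and 22.4% at day 69). At least 2-fold lower were 2 at day 55 and 3 at day 69, beside shares over all genes of 17.0% and 20.9%. Those at day 69 were Itgam (-1.10), Cd163 (-1.55), and C1qb (-1.18). The medians were -0.22 at day 55 and -0.42 at day 69. At day 69, 11 of the 15 were below 0, compared to 7303 of 16168 genes over all. The summed signal, in units of the 75th percentile, was 1062, 992, and 652 at days 42, 55, and 69. Without Itgam, the brightest of them, it was 567, 569, and 421. The sum over all genes was also lowest at day 69, at 110357, 117560, and 77895 in the same order. Adgre1, which encodes F4/80, had levels of 4.82, 5.52, and 5.15, and Itgam, which encodes CD11b, had levels of 8.95, 8.73, and 7.85.

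Most markers of keratinocytes and of Langerhans and dendritic cells were higher on both later arrays. At day 55, 5 of 6 T cell markers and 5 of 5 melanocyte markers were above 0, compared to 55.8% of all genes. At day 69 it was 4 of 6 and 3 of 5, compared to 54.8%. The fibroblast and endothelial lists were divided or lower. Of 15 keratinocyte markers, all well above background on all arrays, 13 were at least 2-fold higher at day 55 and 12 at day 69. The shares over all genes were 29.4% and 22.4%, which also hold for the other lists here. The medians of the keratinocyte markers were 3.29 and 3.22. Their summed signal, in units of the 75th percentile and without the very bright probe of Trp63, was 11.6 at day 42, 140 at day 55, and 109 at day 69. With Trp63 the sums were 273, 403, and 272. The levels of Krt5 were 1.58, 5.56, and 4.91. Of 4 markers of Langerhans and dendritic cells, 3 were at least 2-fold higher on each later array, and their summed signal went from 20.6 to 146 and 89.9, with Cd207 at 3.78, 6.76, and 5.90. Of 6 T cell markers, 3 were at least 2-fold higher on each later array (sums of 2.01, 6.62, and 3.81), and of 5 melanocyte markers, 4 and 3 (sums of 1.73, 5.65, and 5.60), with 1 of them not well above background at day 42. The 8 fibroblast markers (7 with a value at day 55) and the 6 endothelial markers had medians of -0.85 and -0.98 at day 55. At day 69 the medians were -0.33 and -0.05. The part of these cells in the change of the replication genes was not tested.

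**Figure D5:**
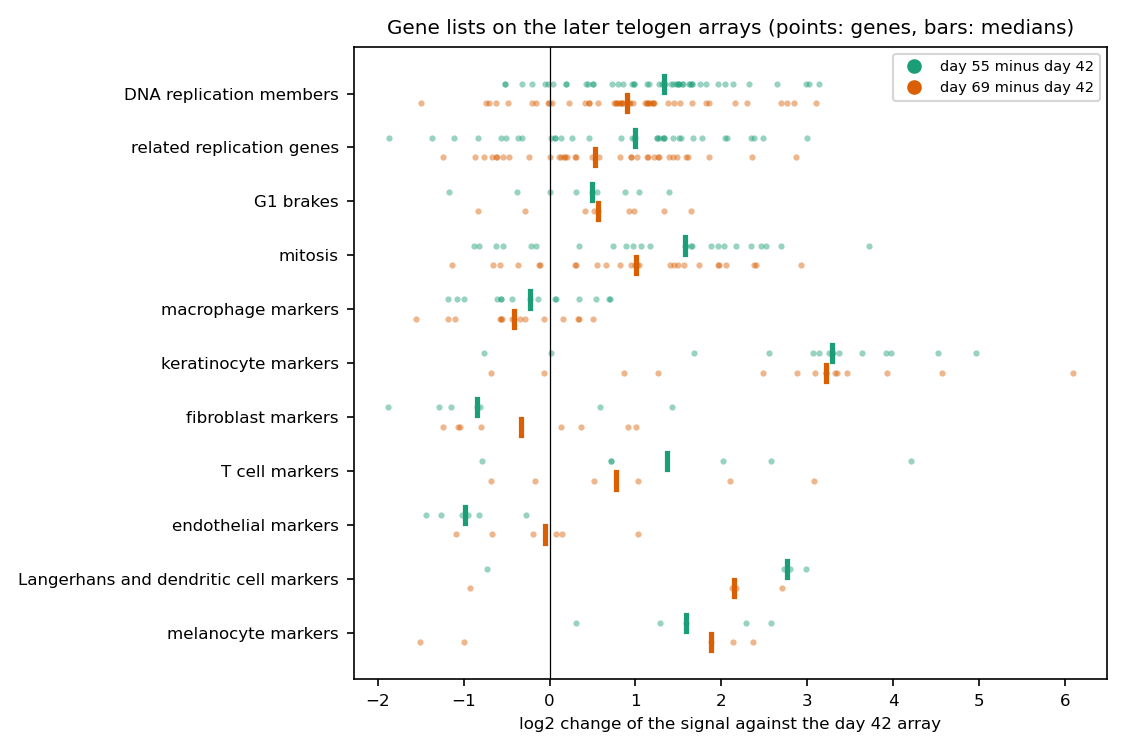
Log2 change (horizontal axis) at day 55 (green) and day 69 (orange) against day 42 for each gene (points) of the lists named on the vertical axis, with list medians as bars. The members have medians of 1.33 and 0.90, the keratinocyte markers of 3.29 and 3.22, and the macrophage markers of -0.22 and -0.42.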

How the data were processed

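RNA of sorted macrophages was amplified, labeled with Cy3, and hybridized to 1 Agilent mouse array per stage, all on 1 slide. The authors quantified the images with Feature Extraction (10.7.3.1 per the file headers) and deposited a background-corrected intensity per spot that is linear and not normalized across arrays. A deposited value table holds log2 values that, per probe, have a median of 0 over the arrays. Its scaling is not given in the sources used here, and it covers 36 members.

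Outlier spots were left out, replicate spots averaged, and the 75th percentile of the array subtracted from log2 intensity. A probe counted as detected if 0.5 or more of its spots passed the scanner software's test of being well above background. If 1 of the 2 arrays compared detected a probe, the change is a bound against the lowest detected signal of the other array or the probe's own signal there, whichever was higher. No change is given if neither array detected it or if the bound pointed the other way. Probes were named through their RefSeq transcript (26056 of 55681 matched a current symbol, GRCm38.p6). For 63 probes all spots of an array were outliers, and these were not used. Skp2, Cd68, and Zbtb46 of the gene lists were not matched. Each gene is its probe with the highest mean signal, and 8 members have another probe.

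With 1 array per stage no test was run, and precision is limited by the number of arrays. Members and lists were chosen with earlier results of these data known. Members that differed at least 2-fold in 1 direction on both later arrays are given with all 3 levels. Alternatives were other scalings, normexp on median intensities (limma 3.58.1, offset 50), the value table, other filters on dim probes and outlier spots, the median over probes, other folds, and exchanged later arrays. The steps were tested on simulated data (Python 3.11.15).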

Additional observations from a re-analysis of the deposited data

Results flagged for a closer look

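Cdc45 moved in opposite directions on the later arrays, with a log2 change of 0.51 at day 55 and -0.70 at day 69 against day 42. Its levels were -2.22 at day 42, -1.71 at day 55, and -2.92 at day 69, all well above background, and the gene has 1 probe. It was picked out because the 2 changes have opposite signs and each exceeds 1 SD of the spot error. The difference was not tested.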

How the results depend on the processing

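No replicate could be left out, and no paired analysis was possible because each stage has 1 array. Depth here is signal over background: the 75th percentile was 21.7, 16.4, and 32.3 times the lowest detected signal at days 42, 55, and 69, so changes of dim genes are bounds. The value table covers 36 members and has no filter on dim probes. Of the recomputed counts and medians, 90 stayed close to the value reported, 68 moved and 3 changed sign. The cause was not tested.

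At day 69, the 20 members at least 2-fold higher became 13 with the percentile over detected probes, 33 with median scaling, 41 without scaling, and 32, 6, and 0 at 1.5-fold, 4-fold, and 10-fold. The 1 lower member became 0 with quantile normalization, median scaling, no scaling, detection on both arrays, exchanged arrays, 4-fold and 10-fold, 2 without the filter, and 4 at 1.5-fold. At day 55, the 28 higher became 7 at 4-fold and 0 at 10-fold, and the 0 lower became 2 in the value table and 1 without the filter, with the median over probes, or with exchanged arrays. On both arrays, the 16 higher became 31 with median scaling, 33 without scaling, and 30, 4, and 0 at 1.5-fold, 4-fold, and 10-fold, and the 0 lower became 1 in the value table and 1 without the filter.

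In the order percentile over detected probes, median scaling, no scaling, normexp, value table, and exchanged arrays, the median log2 change of the members at day 69 (0.90) was 0.70, 1.42, 2.07, 0.73, 1.5, and 1.33, and at day 55 (1.33) it was 0.96, 1.89, 1.59, 0.95, 1.13, and 0.90. For the mitosis genes it was 0.80, 1.52, 2.17, 0.67, 1.66, and 1.58 at day 69 (1.00) and 1.21, 2.14, 1.85, 0.59, 1.32, and 1.00 at day 55 (1.58), with 1.62 and 2.07 after quantile normalization and 1.17 at day 55 with the median over probes. For the related genes it was 1.01, 1.66, 0.30, 1.33, and 0.99 at day 69 (0.53) from median scaling on, with 0.81 after quantile normalization, and 0.62, 1.55, 1.25, 0.61, 1.19, and 0.53 at day 55 (0.99). From day 55 to day 69, the members' median of -0.36 became -0.19 with the percentile over detected probes and turned to 0.54 without scaling, 0.36 in the value table, and 0.36 with exchanged arrays.

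The median of all genes itself ranged over the alternatives from -0.08 to 1.33 at day 69 and from -0.17 to 0.86 at day 55, and in each of them the median of the members lay above it. Of the 16 members at least 2-fold higher on both later arrays, 8 were so in every alternative scaling, filter, source, or array assignment that gave them values. With normexp Pole, Prim1, Gins1, and Cdc7 were no longer at least 2-fold higher on both. With the percentile over detected probes, Cdt1, Mcm3, Mcm6, Rpa1, and Cdc7 were below 2-fold at day 69. Their log2 changes were then 0.96, 0.95, 0.9995, 0.92, and 0.91. After quantile normalization, Mcm6 and Rpa1 were below 2-fold at day 55, at 0.93 and 0.97. Cdc7 turned to -0.041 at day 69 with normexp and to -0.027 at day 55 with the median over probes.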

Other observations

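Among the related replication genes, Ccna2, which encodes the cyclin A of S phase, was not well above background at day 42 and was higher by bounds of 1.67 at day 55 and 1.22 at day 69. Pold4, the smallest subunit of polymerase delta, was higher by 2.06 and 1.26, and Dut, which removes dUTP, by 2.34 and 1.13. These genes were picked after their values were seen.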
